A study of Mus musculus with 8 samples.

Results

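The genes described here encode the ligands, receptors, signal carriers and feedback regulators of the fibroblast growth factor (FGF) and ERK pathway in mouse embryonic stem cells (mESCs). They were chosen by symbol, as the genes whose name in the authors' deposited RNA-seq table equalled one of 35 listed symbols. All 35 were found, among 19429 genes in the table. They comprise 9 FGF ligands, 4 FGF receptors, 7 signal carriers, 12 ERK output genes of the Spry, Spred, Dusp and Etv families, and 3 other feedback or ERK-responsive genes.

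RNA-seq was performed to ask how expression changes when TET1, the dioxygenase that oxidises 5-methylcytosine, binds its partner OGT less well. All lines were LF2 mESCs kept in medium with LIF and serum, and all of them carried a FLAG tag at the TET1 C-terminus with a fluorescent protein encoded behind it. The WT group had wild-type TET1 (lines 2 and 5) and the D2018A group carried the mutation D2018A in TET1 (lines 7 and 8), with 2 technical replicates per line and so 4 libraries per group. Each line was grown from a single cell, so a line is 1 clone. The WT cells, unlike the D2018A cells, had also lost a stretch of DNA beyond the cut site, and in these groups that loss and the genotype cannot be told apart. The authors also studied cells with wild-type TET1 and 1 intact copy of that stretch, by qPCR and mass spectrometry. From these they attributed the differences in expression and 5-methylcytosine to the mutation.

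The authors' deposited table has no values of single libraries. What it gives for each gene is 1 level, the authors' mean of normalised counts over every library in their fit. The smallest means in the table fell on 12 steps, each shared by 38 to 123 genes, as is left by genes that received 1 read in 1 library and none elsewhere. The mean therefore pools 12 libraries, 4 more than the 8 described. What the other 4 libraries are is not given in the sources used here, so every level below is that of the pool and not of the WT and D2018A cells alone. Their size factors lay between 0.726 and 1.47, and a library held 10937569 normalised counts on average. No SD and no n over samples can be given for any level below, and no D2018A against WT difference was computed. Ratios between genes are those of the mean per kb of annotated exon. Where another length (the longest transcript, coding length, stretches found in no other gene, or no correction) moved a ratio by more than 1.5 times, its range over these lengths is given beside it. Each level is given with an exact Poisson interval of 95%, drawn from the fewest reads that the mean allows. These intervals cover counting error only and say nothing of the spread between libraries, lines or genotypes.

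FGFs are secreted proteins that bind receptor tyrosine kinases together with heparan sulphate. The activated receptor recruits docking and adaptor proteins, which switch on Ras, and a kinase cascade then ends in ERK. ERK switches on genes for ETS transcription factors and for its own inhibitors, so the output genes report the activity of the pathway and also limit it. In mESCs, FGF4 acting on its receptors is known as the main stimulus of ERK, and ERK activity is known to prepare the cells to leave self-renewal.

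The label of the cells was checked against marker genes. All 8 markers of embryonic stem cells lay above the 90th percentile of protein-coding genes, which was 298 normalised counts per kb, from Zfp42 with 520 to Utf1 with 5903. Of the fibroblast markers, which would report feeder cells, 4 of 6 had a row, from Col3a1 with 0.00948 to Thy1 with 64.8 per kb. Sums per kb over a list were 18033 for the stem cell markers, 82.4 for the fibroblast markers, 126 for primitive endoderm, 69.1 for neural ectoderm, 55.6 for mesoderm and 48.7 for trophectoderm. In each of these other lists 1 gene lay above the median protein-coding gene, namely Thy1 for fibroblasts, Sox7 with 100 per kb for primitive endoderm, Sox1 with 41.2 for neural ectoderm, and Eomes with 47.8 for both mesoderm and trophectoderm. The lowest were Pdgfra with 1.57, Neurog2 with 0.276, Mesp1 with 0.902 and Elf5 with 0.192. The part of such cells in the levels below was not tested. In bulk RNA, a low level in every cell and a high level in few cells cannot be told apart.

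The DNA in front of the start sites is shown first for 4 genes, because TET1 acts on methylated cytosines in CpG dinucleotides and these genes span the range of levels. Fgf4 is the highest ligand and Fgf5 the lowest, and Spry2 and Dusp6 are feedback genes of intermediate level. Each line gives the 250 bases before the start in RefSeq, build GRCm38.p6, read 5′ to 3′ on the strand of the gene, with every CpG in capitals. The windows are chr7:144861136-144861385 on the plus strand for Fgf4, chr5:98253934-98254183 on the plus strand for Fgf5, chr14:105896820-105897069 on the minus strand for Spry2 and chr10:99262981-99263230 on the plus strand for Dusp6.
Fgf4: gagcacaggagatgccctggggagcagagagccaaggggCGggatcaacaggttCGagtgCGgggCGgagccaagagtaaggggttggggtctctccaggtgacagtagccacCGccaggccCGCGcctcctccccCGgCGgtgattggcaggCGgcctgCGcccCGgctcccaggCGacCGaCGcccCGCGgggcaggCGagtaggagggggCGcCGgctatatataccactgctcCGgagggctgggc
Fgf5: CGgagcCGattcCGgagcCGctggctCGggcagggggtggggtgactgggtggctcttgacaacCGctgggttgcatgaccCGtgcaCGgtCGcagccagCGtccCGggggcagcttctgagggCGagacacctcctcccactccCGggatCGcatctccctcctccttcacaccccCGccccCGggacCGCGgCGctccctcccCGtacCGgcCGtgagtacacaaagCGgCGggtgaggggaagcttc
Spry2: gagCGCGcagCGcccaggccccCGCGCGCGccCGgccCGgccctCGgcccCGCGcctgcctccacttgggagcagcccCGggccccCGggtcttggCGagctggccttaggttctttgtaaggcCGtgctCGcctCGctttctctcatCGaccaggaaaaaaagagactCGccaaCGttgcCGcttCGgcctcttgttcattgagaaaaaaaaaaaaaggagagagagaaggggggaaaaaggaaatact
Dusp6: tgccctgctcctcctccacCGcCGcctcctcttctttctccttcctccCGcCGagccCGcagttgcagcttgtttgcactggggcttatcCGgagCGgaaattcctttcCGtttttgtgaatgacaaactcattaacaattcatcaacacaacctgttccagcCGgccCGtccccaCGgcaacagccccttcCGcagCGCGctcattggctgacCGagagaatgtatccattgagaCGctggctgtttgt

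All 4 windows were rich in CpG. The Fgf5 window held 24, more than 88.0% of all 32851 promoter windows in the RefSeq table, the Spry2 window 23 (more than 86.7%), the Fgf4 window 21 (more than 83.7%) and the Dusp6 window 16 (more than 74.6%). The ligands at the top and the bottom of the range of levels thus had nearly the same number of CpG dinucleotides before their start. Of the other ligands with such a window, Fgf2 had 20, Fgf10 8 and Fgf3 4. Whether the number of CpG goes with the level was not tested. No methylation value was used here.

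Such a window was found for 25 of the 35 genes, 29 windows in all. None was found for the other 10, namely Mapk3, Etv4, Spry4, Fgfr1, Fgf17, Fgf15, Fgf1, Fgf8, Dusp4 and Phlda1. The counts by role below leave these genes out. Among them are the signal carrier, the output gene and the receptor with the highest level per kb of exon. The median was 19 CpG in the windows of these genes and 6 over all windows of the table, whose quartiles were 2 and 16. The windows of ERK output genes ranged from 1 to 31 CpG with a median of 21, those of the ligands from 4 to 24 with a median of 20, those of the signal carriers from 2 to 31 with a median of 22, and those of the receptors from 2 to 24 with a median of 17. The 2 windows of the other feedback genes held 8 and 10, close to the median of all windows. The poorest windows belonged to Etv1, whose 2 windows held 9 and 1, to Fgfr2 and to 1 of the 2 windows of Grb2, with 2 each, and to Fgf3 with 4. Grb2 was among the higher genes of the group and Fgfr2 and Fgf3 among the lower ones. A core motif for ETS factors, the family of the Etv proteins, was searched as CCGGAAG on either strand. It was in 2 windows of these genes, those of Frs2 and Ptpn11, which is 6.90% of their windows, against 6.91% of all windows. A match is a run of letters and no proof of a bound factor, and no match says only that these letters are not in this window.

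**Figure D1:**
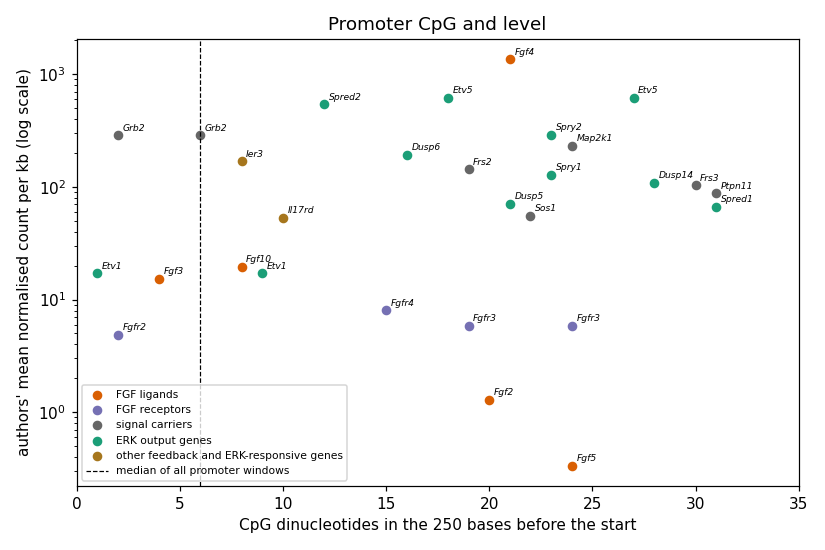
Number of CpG dinucleotides in the 250 bases before each RefSeq start (horizontal axis) against the authors' mean normalised count per kb of exon (vertical axis, log scale) for the 25 genes with a window, coloured by role. Genes with 2 starts have 2 points, and the dashed line is the median of all windows, 6. Fgf4 with 21 CpG and Fgf5 with 24 lie close together along the horizontal axis and at opposite ends of the vertical one. The other ligands shown are Fgf2 with 20 CpG, Fgf10 with 8 and Fgf3 with 4.

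As a group, the genes were expressed above the background of the table. A mean of at least 10 normalised counts was reached by 32 of the 35, or 91.4%, against 73.2% of the 16950 protein-coding genes. Per kb, 25 of the 35, or 71.4%, lay above the median protein-coding gene, which had 24.5 counts per kb over the 16931 genes with an exon length, and 7 of the 35 lay above the 90th percentile. The median of the 35 genes was 103 per kb. By role, all 7 signal carriers, 11 of 12 ERK output genes, 2 of the 3 other genes, 4 of 9 ligands and 1 of 4 receptors lay above the median protein-coding gene, which by definition splits the background evenly. A mean of at least 10 was reached by 6 of 9 ligands and by every gene of the other roles. Whether the roles differ was not tested.

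**Figure D2:**
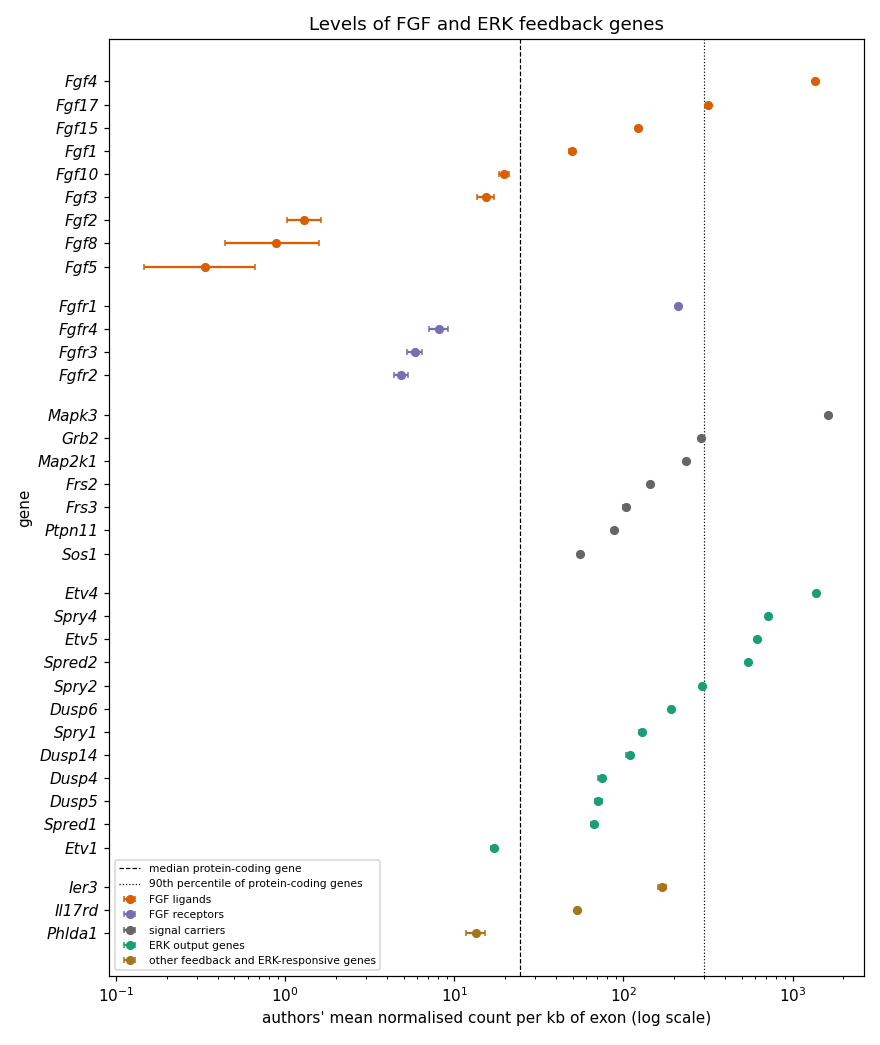
Authors' mean normalised count per kb of exon (log scale) for each of the 35 genes, grouped by role, with the exact Poisson interval of 95% for counting error. The dashed line is the median protein-coding gene (24.5) and the dotted line the 90th percentile (298). Ligands span from 0.336 for Fgf5 to 1362 for Fgf4, while the 7 signal carriers all lie to the right of the dashed line.

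Among the ligands, Fgf4 stood far above the others. Its mean was 4353 normalised counts, the largest of all 35 genes before any correction for length, which corresponds to between 37908 and 76977 reads over the libraries of the fit. Per kb it reached 1362 (interval 1349 to 1376) and the 98.5th percentile of protein-coding genes. Fgf4 made up 72.2% of the sum over the 9 ligands per kb. The other highly expressed ligand was Fgf17, of the same subfamily as Fgf8, with a mean of 532 and 315 per kb (306 to 324), or 16.7% of the sum. Fgf15, the mouse counterpart of the hormone FGF19, had a mean of 375 and 123 per kb (119 to 127), or 6.50% of the sum. Fgf4 was 4.33-fold (4.16 to 4.50) higher than Fgf17 and 11.1-fold (10.6 to 11.6) higher than Fgf15 per kb, and over the lengths tried the ratios ran from 4.33 to 8.76 and from 6.93 to 12.5. The fourth ligand above the median protein-coding gene was Fgf1, which lacks a classical secretion signal, with a mean of 270 and 49.4 per kb (47.5 to 51.5).

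The remaining ligands were low. Fgf10, a ligand known for its part in limb and lung budding, had a mean of 90.1 and 19.6 per kb, at the 46.5th percentile. Fgf3, known for inner ear development, had a mean of 35.6 and 15.3 per kb, at the 42.9th percentile. Fgf2, widely added to cultures of primed stem cells, had a mean of 8.79 and 1.30 per kb (1.02 to 1.62), resting on 77 to 155 reads in all. Fgf8, a ligand of the gastrulating embryo, had a mean of 1.2 and 0.886 per kb (0.442 to 1.59), from 11 to 21 reads. Fgf5, whose rise marks the passage from naive to formative pluripotency, was the lowest of the 35 genes with a mean of 0.840 and 0.336 per kb (0.145 to 0.662), from 8 to 14 reads over all libraries. Per kb, Fgf4 exceeded Fgf2 by 1051-fold (832 to 1345), Fgf8 by 1538-fold (851 to 3111) and Fgf5 by 4054-fold (2037 to 9485). Over the lengths tried these ratios ran from 377 to 1051, from 1403 to 4828 and from 4054 to 6769. The intervals of Fgf2 and Fgf8 overlapped, as did those of Fgf8 and Fgf5, while those of Fgf2 and Fgf5 did not. Each of the higher ligands was separated from the next.

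Fgf3, Fgf4 and Fgf15 lie side by side on chromosome 7 of GRCm38, all on the plus strand. In the authors' table Fgf3 runs from 144838083 to 144844436, Fgf4 from 144847367 to 144865243 and Fgf15 from 144896531 to 144900953, a stretch of 62.871 kb that holds 4 genes of the table. Among Fgf3, Fgf4 and Fgf15 the level per kb ran from 15.3 for Fgf3 to 1362 for Fgf4. This ratio of 89.0 (78.8 to 101) ran from 88.5 to 148 over the lengths tried. Fgf15, between these in level, lies farthest along the chromosome. The remaining gene of the stretch is not described here. The RefSeq start of Fgf4, whose upstream bases are printed above, lies inside the span that the table gives for the gene. The exons of Fgf15 overlap exons of Gm26793 and Gm39119 on the opposite strand over 25.7% of their length, and 21.3% of its 50-base stretches, the length of a read, also occur in another gene, mainly Gm26793. The counting was not stated to use strand, so reads of Fgf15 and of these antisense genes may not be separable. Dividing the same mean by the stretches found in no other gene placed Fgf15 at the 80.0th percentile against 77.6th with all exons. No reads were recounted, so this cannot show how many of them come from the antisense genes.

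The receptor genes showed the same concentration in 1 member. Fgfr1, the receptor through which FGF4 is known to act in the epiblast, had a mean of 2081 normalised counts and 211 per kb (208 to 214), at the 85.8th percentile. It held 91.8% of the sum over the 4 receptor genes per kb. Fgfr4 had a mean of 28.5 and 8.06 per kb (7.09 to 9.12), Fgfr3 a mean of 41.7 and 5.83 per kb (5.25 to 6.46), and Fgfr2, which is associated with primitive endoderm and trophectoderm, a mean of 50.1 and 4.85 per kb (4.41 to 5.33). All 3 passed a mean of 10 but lay below the median protein-coding gene, between the 30.6th and 35.5th percentiles. Fgfr1 was 26.2-fold (22.8 to 30.2) above Fgfr4, 36.2-fold (32.2 to 40.8) above Fgfr3 and 43.5-fold (39.0 to 48.5) above Fgfr2 per kb. Over the lengths tried the ratio to Fgfr4 ran from 24.9 to 72.9, that to Fgfr3 from 32.8 to 49.9 and that to Fgfr2 from 36.5 to 43.5. The intervals of Fgfr3 and Fgfr2 overlapped. The order of the lower 3 also turned with the length used, since Fgfr4 led them per kb of exon and Fgfr2 led them per kb of the longest transcript or of coding length. Exons of Fgfr3 overlap those of the antisense gene G630022F23Rik over 13.9% of their length. Those of Fgfr2 overlap Ctbp2 on the same strand over 3.04%, and those of Fgfr1 the antisense gene Gm16159 over 1.66%. Fgf4 was 6.46-fold (6.31 to 6.62) higher than Fgfr1 per kb, and from 2.09-fold to 8.62-fold over the lengths tried.

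The genes that carry the signal from the receptor to ERK were all well expressed. Mapk3, which encodes ERK1, had the highest level per kb of the 35 genes, with a mean of 3680 and 1630 per kb (1613 to 1648), at the 98.9th percentile. Grb2, the adaptor that brings the Ras activator SOS to the receptor complex, followed with a mean of 842 and 289 per kb, and Map2k1, which encodes the ERK kinase MEK1, with a mean of 791 and 233 per kb. Frs2, the docking protein that FGF receptors phosphorylate, had a mean of 1258 and 144 per kb, and its relative Frs3 a mean of 324 and 103 per kb, a ratio of 1.39 (1.31 to 1.47) that ran from 1.22 to 3.89 over the lengths tried. Ptpn11, the phosphatase SHP2 that promotes Ras signalling, had a mean of 660 and 88.1 per kb, and Sos1, the Ras activator itself, a mean of 589 and 55.6 per kb. Per kb of exon no neighbours in this order had overlapping intervals, and all 7 lay at or above percentile 63.2. Below Mapk3 the order changed with the length used. Map2k1 was above Grb2 with the longest transcript, and Frs2 was above Map2k1 with coding length. With no correction Frs2 came next after Mapk3 and Frs3 was the lowest. Of the exon length of Frs3, 16.3% overlaps the antisense gene Frs3os and 2.21% overlaps Tomm6os on the same strand, and 7.54% of the stretches of Grb2 also occur in Gm12791.

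Among the ERK output genes, Etv4, Spry4, Etv5, Spred2 and Spry2 were the 5 highest. Etv4 had a mean of 4247 and 1368 per kb (1354 to 1382), at the 98.5th percentile, and Etv5 a mean of 2542 and 620 per kb (612 to 628). Etv4 was 2.21-fold (2.16 to 2.26) higher than Etv5. Etv1, the third gene of this subfamily, had a mean of 228 and 17.2 per kb, at the 44.4th percentile. Per kb of exon it was the single output gene below the median protein-coding gene. With the longest transcript, coding length or no correction it lay above that median, at percentiles 50.7, 61.4 and 61.8. Etv4 was 79.7-fold (75.5 to 84.2) above it, a ratio that ran from 18.3 to 79.7 over the lengths tried. Per kb of exon the interval of Etv4 overlapped that of the ligand gene Fgf4, with a ratio of 1.00 (0.984 to 1.02), but the ratio was 1.23 per kb of the longest transcript and 0.406 with coding length. The value of Etv5 is less certain than its interval, because 24.5% of its 50-base stretches also occur in Gm4798.

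The Sprouty genes, whose products block Ras activation downstream of receptor kinases, formed a series of 3 separate levels. Spry4 had a mean of 3415 and 718 per kb, Spry2 a mean of 605 and 290 per kb, and Spry1 a mean of 373 and 128 per kb. Spry4 was 2.48-fold (2.39 to 2.58) above Spry2, and Spry2 was 2.26-fold (2.12 to 2.40) above Spry1. Over the lengths tried the first ratio ran from 2.45 to 5.93. Exons of Spry1 overlap the antisense gene Gm42922 over 24.4% of their length. Of the Spred genes, related inhibitors that act on Ras and Raf, Spred2 had a mean of 2506 and 543 per kb and Spred1 a mean of 451 and 66.5 per kb, a ratio of 8.15 (7.80 to 8.53).

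Per kb of exon, the 4 dual-specificity phosphatase genes lay below those 5 and above Spred1 and Etv1, with levels from 71.0 to 192 per kb. Their place above Spred1 and Etv1 changed with the length used. With the longest transcript or coding length Spred1 was above Dusp4 and Dusp5, and with coding length Etv1 was above Dusp5. With no correction Spred1 and Etv1 were both above Dusp14, Dusp4 and Dusp5. Dusp6, which encodes the phosphatase that removes phosphate from ERK in the cytoplasm, had a mean of 601 and 192 per kb (187 to 197), at the 84.5th percentile. Dusp14, which encodes a small atypical member of the family, had a mean of 211 and 109 per kb (104 to 114). Dusp4 and Dusp5, whose products act on ERK in the nucleus, had means of 204 and 176, with 74.3 per kb (70.9 to 77.9) and 71.0 per kb (67.5 to 74.7), and their intervals overlapped. Those of Dusp5 and Spred1 overlapped as well. Dusp6 was 1.77-fold (1.64 to 1.90) above Dusp14, 2.58-fold (2.40 to 2.78) above Dusp4 and 2.70-fold (2.5 to 2.92) above Dusp5, and the ratio to Dusp14 ran from 1.48 to 2.84 over the lengths tried. Exons of Dusp5 overlap the antisense gene AC137853.2 over 22.1% of their length.

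The 3 other genes of the group were spread over the range. Ier3, an early response gene, had a mean of 191 and 169 per kb (161 to 177), at the 82.6th percentile. Il17rd, which encodes the membrane inhibitor Sef, had a mean of 584 and 53.2 per kb (51.7 to 54.7). Phlda1, an ERK-responsive gene, had a mean of 29.4 and 13.4 per kb (11.8 to 15.1), at percentile 41.2, and 33.0% of its exon length overlaps the antisense gene Gm28592. With all 35 genes in 1 order by level per kb, 12 of the 34 pairs of neighbours had overlapping intervals.

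The place of a gene among protein-coding genes depended on the length by which its mean was divided. With the longest transcript in place of all annotated exons, a gene of the group moved by a median of 2.00 percentile points and by at most 6.28. With coding length, the median was 3.15 and the largest move 22.8 points, that of Fgf1, which rose from percentile 61.2 to 84.0 and passed Fgf15. With stretches found in no other gene, the median was 0.849 and the largest move 3.60 points. With no correction, the median was 6.66 and the largest move 23.7 points, that of Ier3, whose exons are short. Fgf4, Fgfr1 and Mapk3 led the ligands, receptors and signal carriers under each of these lengths. Etv4 led the output genes under each except coding length, where Spry4 was above it.

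**Figure D3:**
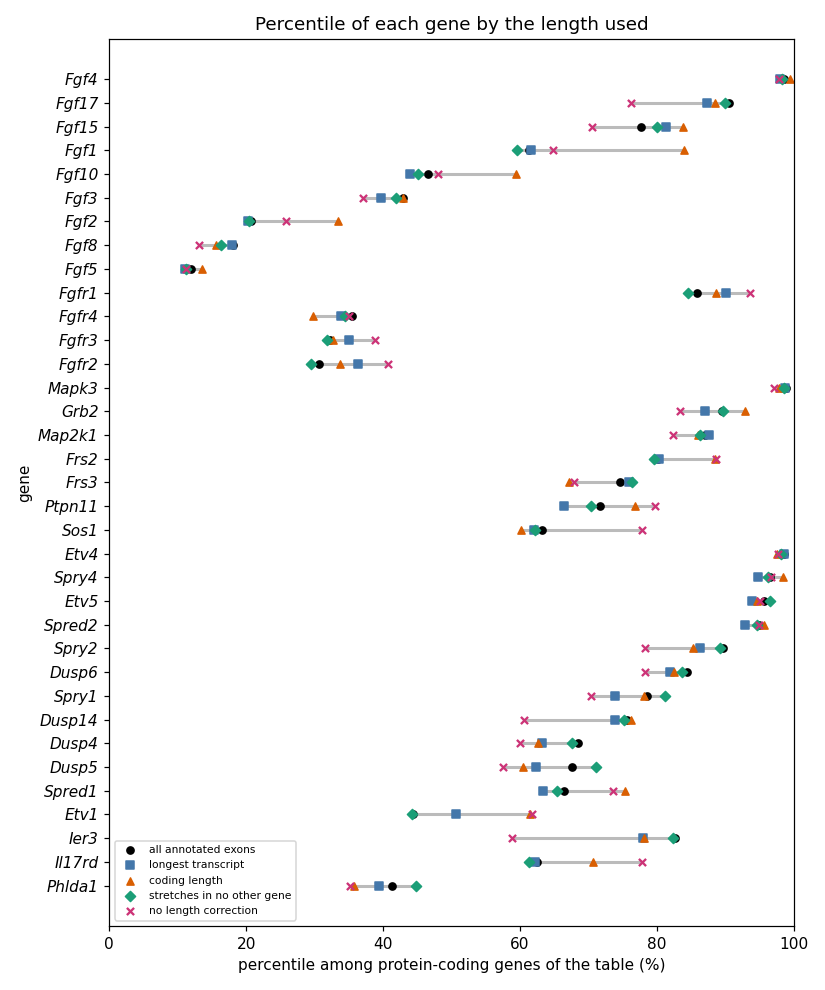
Percentile of each of the 35 genes among protein-coding genes of the table (horizontal axis, 0 to 100%), with the mean divided by all annotated exons, by the longest transcript, by coding length, by stretches found in no other gene, or by no length. A grey bar joins the lowest and highest value of each gene. Fgf4, Mapk3 and Etv4 stay close to the right edge, while Fgf1, Ier3 and Etv1 have some of the longest bars.

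A wider list of 68 genes of the pathway was read in the same way, and 65 of them had a row in the table. Of 9 other secreted FGF ligands 8 had a row, and 5 of these had a mean under 1. They were Fgf6 with a mean of 0.836, Fgf7 with 0.592, Fgf9 with 0.0676, Fgf20 with 0.0655 and Fgf22 with 0.197, the means of Fgf9 and Fgf20 being those of 1 read in 1 library. The highest was Fgf18 with 32.6 per kb, named after its value was seen. Of 4 FGF homologous factors, which stay inside the cell, 3 had a row, with means of 0.784 for Fgf14, 21.8 for Fgf13 and 285 for Fgf11. Fgf11 lay above the median protein-coding gene with 93.6 per kb, and it and Fgf13 were named after their values were seen. The 8 other secreted ligands summed to 38.1 per kb, against 1887 for the 9 described above.

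The wider list of signal carriers also holds some genes whose products restrain Ras or the receptors. Its genes were expressed throughout, like the 7 above, with 17 of 17 above the median protein-coding gene. The highest of all 65 genes was Gab1, a docking protein that binds GRB2, with a mean of 16753 and 3297 per kb (3280 to 3314), at the 99.6th percentile, which is 11.4-fold (11.1 to 11.7) above Grb2 and 2.02-fold (1.99 to 2.05) above Mapk3. Over the lengths tried these ratios ran from 5.96 to 19.9 and from 1.64 to 4.55. The closest paralogues of 2 carriers were set beside them after their values were seen. Map2k1 and Map2k2 differed by 1.14-fold (1.09 to 1.19) and Sos1 and Sos2 by 1.25-fold (1.17 to 1.33), but Map2k1 over Map2k2 turned to 0.673 per kb of the longest transcript.

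Of 18 other ERK feedback and early genes, 12 lay above the median protein-coding gene, from Dusp8 with 0.802 per kb to Ier2, an immediate early gene, with 1865. Dusp9, an X-linked gene for another phosphatase of ERK, had a mean of 4125 and 1515 per kb (1500 to 1531), which is 7.90-fold (7.61 to 8.20) above Dusp6 and above each of the 4 Dusp genes described earlier. Erf, which encodes an ETS repressor that ERK drives out of the nucleus, had a mean of 4223 and 1171 per kb (1159 to 1183).

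**Figure D4:**
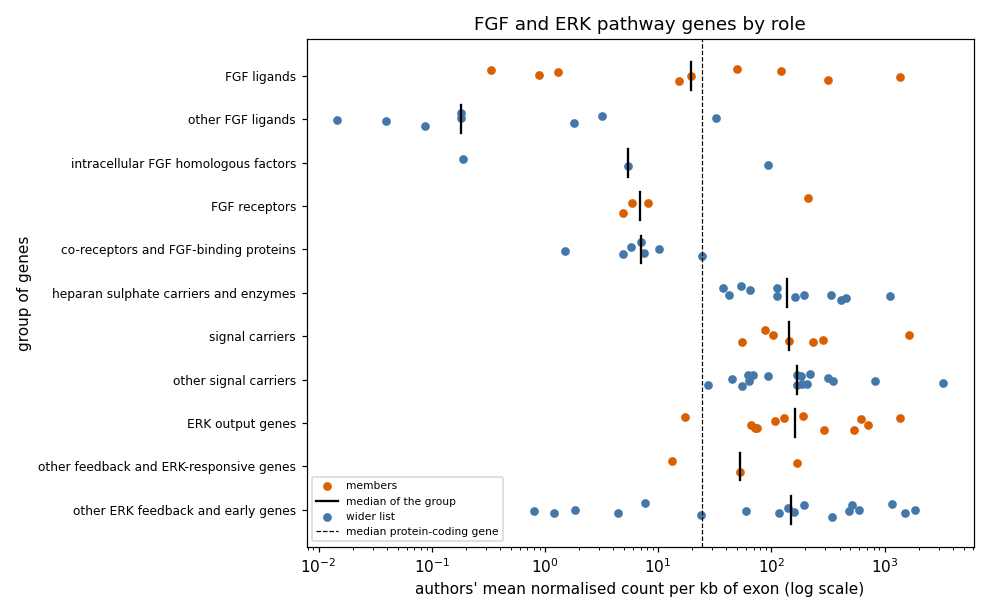
Authors' mean normalised count per kb of exon (log scale) for the genes of each role, with 1 point per gene, orange for the 35 genes and blue for the wider list, and a black bar at the median of each role. The dashed line is the median protein-coding gene (24.5). All signal carriers of both lists lie to its right, while no co-receptor or FGF-binding protein does and the other FGF ligands lie to its left except Fgf18.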

How the data were processed

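RNA was depleted of ribosomal RNA, and libraries were made with the SENSE total RNA-seq kit and read as single ends of 50 bases. Per the submitters' processing notes and the study's methods, reads were aligned to GRCm38.p6 and counted per gene with STAR 2.5.3a and normalised with DESeq2 1.20.0. The authors deposited 1 table, in which the level of a gene is a signal, the mean of counts divided by library size factors, over all libraries of their fit. The table also holds the authors' own comparison of D2018A with WT (log2 fold change, standard error, statistic, p-value and adjusted p-value). Those columns were not used, and no level per genotype was computed. The planned edgeR test on counts summed per line was not run, because it needs counts per library. Whether strand was used in counting, and how reads that align to several genes were treated, is not given in the sources used here.

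Exon, transcript and coding lengths were computed from GENCODE vM21, which held 19351 of the 19429 identifiers and all 35 genes, 30 of them with the same start and end. Stretches of 50 bases were compared between annotated transcripts. Libraries in the fit were counted as steps of single-read means with at least 30 genes, a procedure tested on simulated data. The highest and lowest single-read means, 0.115 and 0.0565, gave the fewest and most reads behind a gene. Counting intervals are exact Poisson intervals of 95% on the fewest reads, and a ratio's interval runs from the lower end of one gene over the upper end of the other to the reverse. PCR duplicates cannot be told from separate molecules. Python 3.11.15 with pandas 2.3.3, numpy 2.4.6, scipy 1.17.1 and matplotlib 3.10.9 was used.

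Samples were grouped by their titles and genotype labels. Alternatives were other lengths, other minimum means (1 and 100) and other backgrounds. The rule for named genes took all 35, the 5 highest per kb and those with a mean under 1 of the wider list, and the highest and lowest of each marker list. The genes and lists were chosen with earlier results of these data known.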

Additional observations from a re-analysis of the deposited data

How the results depend on the processing

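No count by role left its main value by more than 1.5 times under any alternative run. The number of genes with a mean of at least 10 was 32, against 34 at a mean of 1 and 26 at a mean of 100, and the number above the median protein-coding gene was 25, against 25 to 27 under other lengths and backgrounds. Ratios between genes moved more. Per kb of the longest transcript, Fgf4 over Fgf17 was 4.56 in place of 4.33, Fgfr1 over Fgfr4 48.1 in place of 26.2, Etv4 over Spry4 2.47 in place of 1.91 and Mapk3 over Grb2 6.58 in place of 5.65. With coding length they were 8.76, 70.0, 0.768 (Spry4 then higher) and 2.5, and with no length correction 8.19, 72.9, 1.24 and 4.37. With stretches found in no other gene, Etv4 over Spry4 was 1.76 and Mapk3 over Grb2 5.11. Fgfr4 over Fgfr2, 1.66 per kb of exon, turned to 0.759 (longest transcript), 0.599 (coding length) and 0.570 (no length), Map2k1 over Map2k2 to 0.673, 0.696 and 0.682 under the same settings, and Etv4 over Fgf4 to 0.406 (coding length), 0.923 (stretches found in no other gene) and 0.976 (no length). Of the ratios computed, 19 moved by more than 1.5 times under some length and 9 did not. These moves follow from the lengths themselves, since the means stay the same. Which transcripts the cells used was not tested, so a ratio per kb is firm only as far as these settings bear it out.

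No paired analysis was possible because the table holds no values per library. For the same reason the other settings meant for a comparison of the genotypes (DESeq2 in place of edgeR, no filter, technical replicates kept separate, a replicate block, and each line left out in turn) were not run. Depth limits the lowest genes, since Fgf5 rests on 8 to 14 reads and Fgf8 on 11 to 21.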

Other observations

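Genes for heparan sulphate, the sugar chain that FGFs need to bind their receptors, were expressed throughout. All 12 of the listed carriers and enzymes lay above the median protein-coding gene, with a median of 136 normalised counts per kb. The highest was Sulf2, an enzyme that trims sulphate from the chains outside the cell, with a mean of 6528 and 1112 per kb (counting interval 1103 to 1121). The lowest was Hs2st1, a sulphotransferase, with 37.1 per kb, named after its value was seen. Among the core proteins, Gpc4 had 412 and Gpc3 334 per kb, also named after their values were seen.

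Of 8 listed co-receptors and FGF-binding proteins 7 had a row in the table, and 0 of them lay above the median protein-coding gene. The highest was the receptor relative Fgfrl1 with 24.3 per kb and the lowest Klb, the co-receptor through which endocrine FGFs such as FGF15 act, with 1.49 per kb (1.14 to 1.92). Both were named after their values were seen. No test was run on these groups.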
